A study of Homo sapiens with 16 samples.

Results

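The 476 genes described here were the long noncoding RNA genes in a table of array intensities from AsPC-1, an established cell line of human pancreatic adenocarcinoma. They were chosen by name alone: the symbol started with LINC and a digit (267 intergenic genes) or ended in -AS and a digit (209 genes antisense to another gene), and each gene was represented by its brightest probe set. They made up 476 of the 5250 genes with a single symbol in the table. Of the 476 genes, 472 were matched to RefSeq, which lists 471 of them as long noncoding RNA.

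The cells were exposed to 10 uM ICG-001, a small molecule that binds the transcriptional coactivator CBP and blocks its contact with beta-catenin, or to its vehicle DMSO; RNA was taken after 6 h and after 24 h, and each treatment and time had 3 arrays. In a separate experiment they were transfected with 20 nM control siRNA or siRNA against CTNNB1, the gene of beta-catenin, and RNA was taken at 48 h, with 2 arrays in each group. All 16 arrays are labelled as RNA of the 1 cell line, so by their labels the groups describe this line alone. The identity of the cells was not tested, and no untransfected or untreated group was analysed here. Arrays of a group are labelled as biological replicates, with nothing on whether separate cultures were used, so the p-values measure the spread between these arrays, which may be partly technical.

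Long noncoding RNAs are transcribed by RNA polymerase II, are often spliced and carry no long open reading frame. An antisense gene runs opposite to a neighbouring gene, often from a shared promoter, and may act on that neighbour or may only be transcribed alongside it; a LINC gene lies between coding genes. Many are held at low levels and differ between cell types, and some host small nucleolar RNAs or microRNAs in their introns.

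Promoter sequences are shown for 4 genes that changed at both times of ICG-001 exposure, a pair that rose (EPB41L4A-AS1 and LINC01133) and a pair that fell (HOXA-AS2 and TMPO-AS1). They were picked by hand, with no set rule, from the 16 genes that passed at both times. Each runs 5′ to 3′ on the gene's own strand, from 250 bases before the RefSeq start to 50 bases from the start on, in build GRCh38.p14. Capitals mark a match to a searched motif.
EPB41L4A-AS1, chr5:112160276-112160575, plus strand: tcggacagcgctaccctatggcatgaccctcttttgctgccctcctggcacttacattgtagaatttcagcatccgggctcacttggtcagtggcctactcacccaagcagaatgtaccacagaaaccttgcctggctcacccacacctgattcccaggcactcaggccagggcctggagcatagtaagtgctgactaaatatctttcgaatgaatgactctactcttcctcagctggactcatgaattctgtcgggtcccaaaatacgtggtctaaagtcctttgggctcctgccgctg
LINC01133, chr1:159960974-159961273, plus strand: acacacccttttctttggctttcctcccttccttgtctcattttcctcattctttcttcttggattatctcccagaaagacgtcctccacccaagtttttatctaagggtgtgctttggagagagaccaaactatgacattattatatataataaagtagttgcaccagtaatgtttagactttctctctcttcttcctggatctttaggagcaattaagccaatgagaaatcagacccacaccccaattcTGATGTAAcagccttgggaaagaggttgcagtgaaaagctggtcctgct
HOXA-AS2, chr7:27121669-27121968, plus strand: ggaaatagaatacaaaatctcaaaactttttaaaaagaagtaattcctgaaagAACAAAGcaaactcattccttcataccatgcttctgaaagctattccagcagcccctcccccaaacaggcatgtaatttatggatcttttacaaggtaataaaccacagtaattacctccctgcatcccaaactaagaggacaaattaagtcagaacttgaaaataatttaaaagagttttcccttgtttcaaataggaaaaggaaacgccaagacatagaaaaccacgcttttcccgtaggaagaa
TMPO-AS1, chr12:98516177-98516476, minus strand: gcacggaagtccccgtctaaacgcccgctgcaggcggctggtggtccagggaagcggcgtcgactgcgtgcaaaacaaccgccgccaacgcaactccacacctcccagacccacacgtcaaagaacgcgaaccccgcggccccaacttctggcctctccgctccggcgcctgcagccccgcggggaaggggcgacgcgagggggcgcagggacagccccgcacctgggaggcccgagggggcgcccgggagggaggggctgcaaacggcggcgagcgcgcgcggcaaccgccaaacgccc
The motifs searched on both strands were the TCF/LEF site through which beta-catenin acts (with the letters CTTTGAA in one form, CTTTGAT in another, CTTTGTA in the next and CTTTGTT in the last), the amino acid response element bound by ATF4 (TGATGNAA) and the E2F site of cell-cycle genes (TTTCGCGC in one form and TTTGGCGC in the other). TCF/LEF and amino acid response element matches can share bases, where CTTTGAT runs on into TGATGNAA. LINC01133 held an amino acid response element match, TGATGTAA, that began 1 base after the start. HOXA-AS2 held a TCF/LEF match on the reverse strand, AACAAAG, at position -197 from the start. Neither the EPB41L4A-AS1 nor the TMPO-AS1 window held these letters. LINC01133 and HOXA-AS2 were the only ones of the 16 genes with a match, so the 4 windows shown overstate how often one was found. Genes with no promoter in the sequence table could show none. The TMPO-AS1 promoter had a GC content of 73.3%, against 52.3% in EPB41L4A-AS1, 41.3% in LINC01133 and 36.0% in HOXA-AS2.

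Across the sequence table, 333 of the 476 genes had 377 promoters. A TCF/LEF match lay in 15.6% of these 377 promoters and in 13.8% of all 35116 promoters of the table. The amino acid response element occurred in 5.04% against 3.62%, and the E2F site in 1.06% against 1.15%. Among the promoters of long noncoding RNA genes that rose with ICG-001 at 24 h, 2 of 15 held a TCF/LEF match and 1 of 15 an amino acid response element match. Among those that fell, 3 of 27 held a TCF/LEF match and 0 of 27 either of the other motifs. Median GC content was 47.8% in promoters of LINC genes and 58.7% in those of antisense genes, the latter equal to the 58.7% of the whole table.

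The array values are deposited intensities on a linear scale, and intensities in the text are those values. The table holds probe sets that vary over the 16 arrays, so a gene with a steady level is outside every count. Array medians ran from 20.6 to 28.6 in the drug experiment and from 12.7 to 13.05 in the siRNA experiment, and mean intensities from 164 to 179 on the ICG-001 arrays and from 132 to 137 on the DMSO arrays. Changes are therefore log2 differences of intensity + 16 after quantile normalization, with their standard error (SE), from 1 limma model over all 16 arrays. A gene passed the test at a Benjamini-Hochberg adjusted p under 0.05 over all 5250 genes, two-sided. Because quantile normalization narrowed the brightest values of the ICG-001 arrays, the change under the deposited scaling is given where it differs in call, sign or size by more than 1.5 times. The added 16 makes the change of a gene of low intensity smaller, so an order of genes by size of change may differ with another constant. The level of CTNNB1 was not analysed here, so it gives no check of the siRNA labels.

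Before the comparisons, the 2 experiments differed in cell-type markers although all labels name AsPC-1. Of 10 epithelial markers of pancreatic ductal adenocarcinoma, 4 were measured. CDH1, the epithelial cadherin, lay between 273 and 371 on the 12 drug arrays and between 8.68 and 16.6 on the 4 siRNA arrays, and KRT19 lay between 73.4 and 109.6 against 7.23 and 15.8. KRT7 and MUC1 were also lower on every siRNA array. None of the 4 was at 0, and their summed intensity ran from 2445 to 3340 on drug arrays and from 399.7 to 552 on siRNA arrays. The sum also differed with treatment at 24 h, with 2445 to 2578 with ICG-001 and 2824 to 3340 with DMSO. At 6 h the ranges overlapped, with 2769 to 2850 with ICG-001 and 2715 to 2854 with DMSO. It was 521 to 552 with CTNNB1 siRNA against 399.7 to 445 with control siRNA. Of the other lists, 0 of 4 acinar, 0 of 4 islet, 3 of 5 fibroblast, 1 of 3 endothelial and 1 of 4 leukocyte markers were measured. The endothelial marker PECAM1 had a mean of 6.55 and the leukocyte marker PTPRC a mean of 15.9. The 3 fibroblast markers ran in both directions: COL1A1 lay between 21.3 and 55.5 on drug arrays and between 68.5 and 101.6 on siRNA arrays, DCN between 58.8 and 98.1 against 8.61 and 31.99, and COL3A1 between 3.34 and 18.2 against 1.72 and 4.75. The part these marker differences play in the results was not tested. In RNA from whole cultures, fewer cells of a kind and less RNA per cell cannot be told apart.

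Most long noncoding RNA genes gave dim probe sets. Mean intensity over the 16 arrays had a median of 15.6 for the 476 genes, 14.1 for LINC genes and 20.6 for antisense genes, against 29.8 for all 5250 genes. It was below 16 in 242 genes (50.8%, against 34.2% of all genes) and above 100 in 60 genes (12.6%, against 27.2%). These are brightnesses of different probe sets, not amounts of RNA that can be ranked between genes. The brightest probe set was that of EPB41L4A-AS1, with a mean of 2512, followed by SLC9A3-AS1 with 799.8 and LINC01133 with 752.0.

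The level of many genes separated the experiments. In 140 of the 476 genes (29.4%) all 12 drug arrays lay above all 4 siRNA arrays, and in 41 (8.61%) all lay below. The shares of all 5250 genes were 35.5% and 15.5%. These counts use deposited intensities, and each siRNA array had a lower median and mean than each drug array. The table also holds only probe sets that vary over these same arrays, which favours genes that differ between the experiments. TPT1-AS1, antisense to the gene of the translationally controlled tumour protein, lay between 703.8 and 1209 on drug arrays and between 21.2 and 29.7 on siRNA arrays. It passed in none of the 6 comparisons, but under the deposited scaling its changes with ICG-001 of 0.46 at 6 h and 0.45 at 24 h, in place of 0.14 and 0.12, passed. LINC00689 lay between 125 and 191 against 1.00 and 6.98. HLA-F-AS1, antisense to a class I histocompatibility gene, ran the other way, between 26.6 and 46.8 on drug arrays and between 1608 and 1864 on siRNA arrays. HOXA-AS3, from the HOXA cluster that patterns the body axis, lay between 82.7 and 156 against 964.5 and 1190. These 4 genes were singled out after their values were seen. Experiment, transfection, time and any difference between the cells used cannot be told apart in this comparison, which was not tested.

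**Figure D1:**
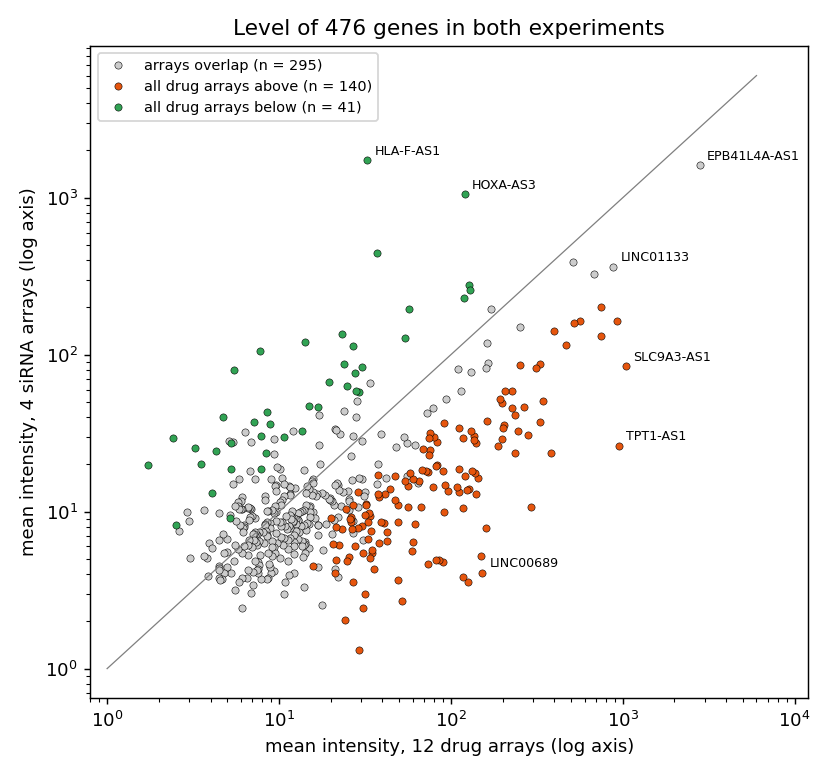
Mean deposited intensity of each of the 476 long noncoding RNA genes on the 12 drug arrays (x axis, log scale) and the 4 siRNA arrays (y axis, log scale); points are genes, coloured by whether the arrays of both experiments overlap, and the line marks equal means. Drug arrays lay above in 140 genes and below in 41, and HLA-F-AS1 and TPT1-AS1 stand far from the line on opposite sides.

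The share of the 476 genes that passed the test was below that of the whole table in each of the 6 comparisons, which is a description with no test of the difference. With ICG-001 at 6 h, 22 of 476 passed (4.62%), 8 higher and 14 lower, beside 13.8% of all genes (5.56% higher and 8.23% lower). At 24 h, 45 passed (9.45%), 22 higher and 23 lower, beside 20.5% of all genes (9.22% higher and 11.3% lower). With CTNNB1 siRNA, 36 passed (7.56%), 22 higher and 14 lower, beside 12% of all genes (6.19% higher and 5.83% lower). From 6 h to 24 h, 13 passed under DMSO (2.73%, beside 8.63% of all genes, of which 4.69% higher and 3.94% lower) and 37 under ICG-001 (7.77%, beside 17.4%). The ICG-001 effect itself differed between the times in 17 (3.57%, beside 7.81%), 13 of them higher at 24 h and 4 lower (3.89% and 3.92% of all genes). In total 86 genes (18.1%) passed at least once, against 31.2% of all genes, and 390 never did. Deposited intensities of ICG-001 and DMSO arrays did not overlap in 19.1% of the 476 genes at 6 h and 21.2% at 24 h. Of all genes, 26.4% and 32.7% did not overlap. With CTNNB1 siRNA the shares were 41.0% and 44.2%.

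The direction counts depended on the scaling. Under the deposited scaling, 15 genes were higher and 9 lower at 6 h, where 12.4% of all genes passed (7.73% higher and 4.65% lower), and 40 were higher and 17 lower at 24 h, where 21.4% of all genes passed (14.1% higher and 7.33% lower). For the difference between the times the split was 16 higher and 1 lower, where 8.86% of all genes passed (5.1% higher and 3.75% lower). The median change of the 476 genes was 0.01 at 6 h and -0.02 at 24 h, against -0.02 at both times for all genes; under the deposited scaling the 24 h medians were 0.08 and 0.09. Those same genes had a median change of 0.03 with CTNNB1 siRNA, against 0.01 for all genes.

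The share that passed was higher among brighter genes. At 24 h, 4 of the 242 genes with a mean intensity below 16 passed (1.65%, against 1.9% of all genes in that range), 17 of 174 between 16 and 100 (9.77% against 10.4%) and 24 of 60 above 100 (40% against 58.3%). At 6 h, 0 of 242, 5 of 174 and 17 of 60 passed, beside 0.39%, 4.04% and 44.5% of all genes. Antisense genes made up 31 of the 45 that passed at 24 h and 13 of the 22 at 6 h, and LINC genes the other 14 and 9. At 24 h these were 14.8% of antisense and 5.24% of LINC genes, beside 20.5% of all genes. At 6 h they were 6.22% and 3.37%, beside 13.8%. Antisense genes were also brighter, with a mean intensity above 100 in 18.7% against 7.87% of LINC genes.

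**Figure D2:**
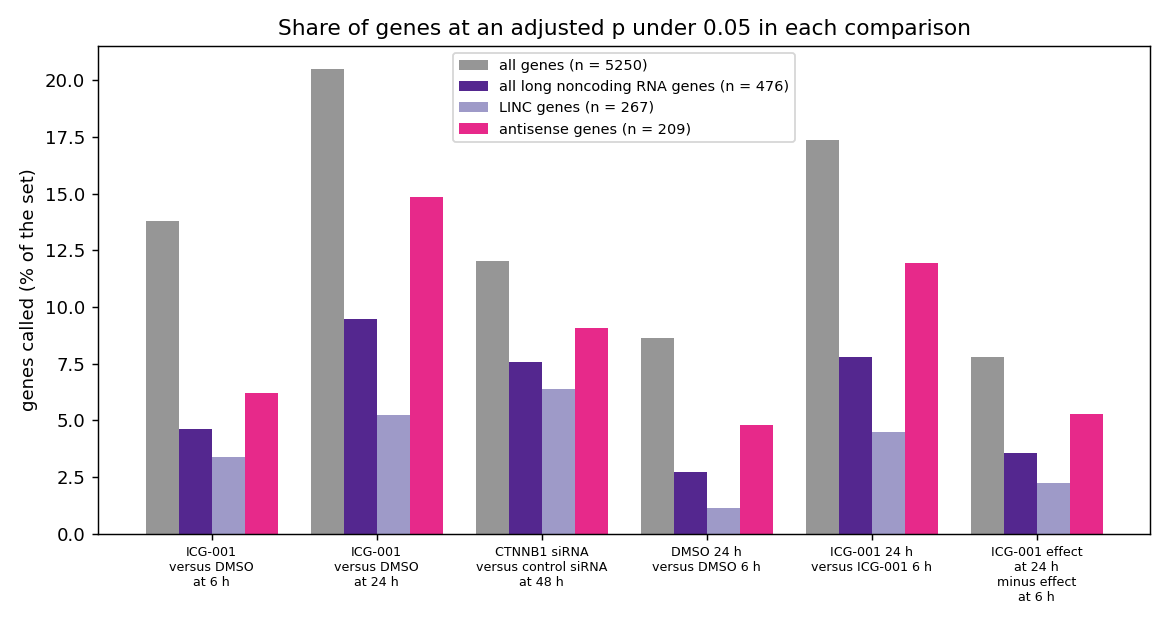
Percentage of genes at an adjusted p under 0.05 (y axis) in each of the 6 comparisons (x axis), for all 5250 genes, the 476 long noncoding RNA genes, and the LINC and antisense genes among them; bars start at 0. Each bar of the 476 genes is lower than that of all genes, and at 24 h they reach 9.45% and 20.5%.

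Of the 22 genes that passed at 6 h and the 45 at 24 h, 16 were shared, all in the same direction at both times, which is 72.7% of the first set and 35.6% of the second. The shared genes were 6 that rose (EPB41L4A-AS1, LINC01133, LINC00662, LINC03008, LINC02604 and DIP2C-AS1) and 10 that fell (TMPO-AS1, LINC03024, HOXA-AS2, HOXA-AS3, HMMR-AS1, MUC12-AS1, KLRK1-AS1, LINC01140, B3GALT5-AS1 and MRPL20-AS1). The 6 h and 24 h comparisons use different arrays on both sides. Sharing between the times was not counted over all genes, and brighter genes passed more often at each time. Whether the 16 shared genes are more than other genes of like intensity would show was not tested.

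**Figure D3:**
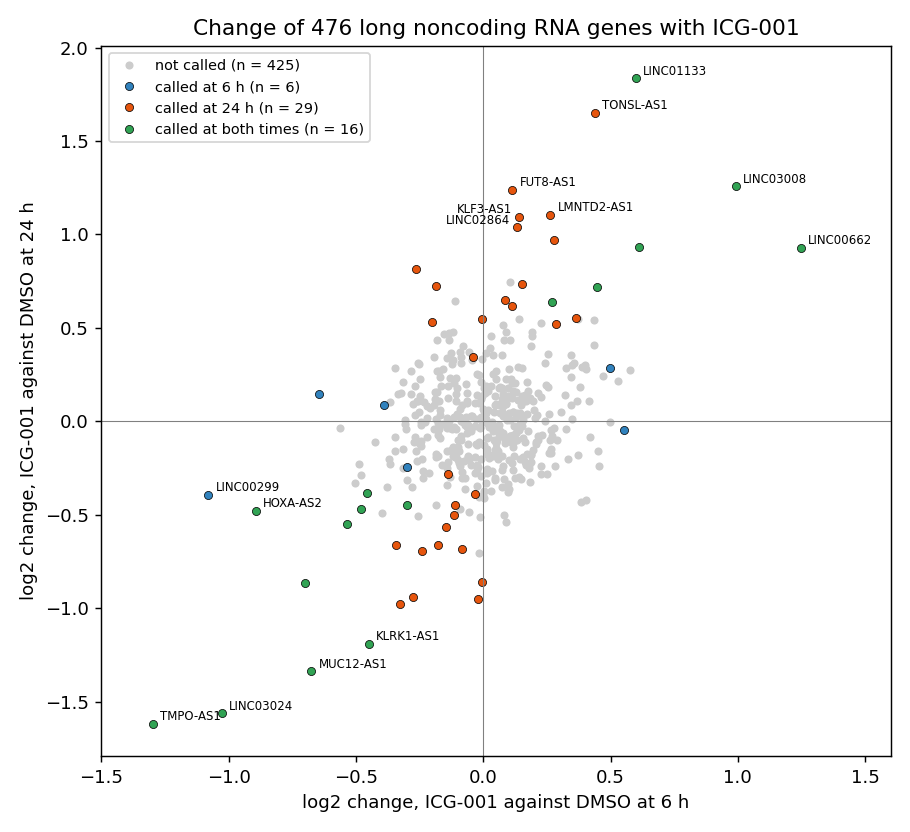
Change of each of the 476 genes with ICG-001 at 6 h (x axis) and 24 h (y axis), as log2 differences from DMSO after quantile normalization; points are genes, coloured by the time at which they passed the test. The 16 genes that passed at both times lie in the lower left and upper right, from TMPO-AS1 to LINC00662, LINC03008 and LINC01133.

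EPB41L4A-AS1, a gene on chromosome 5 that hosts a small nucleolar RNA, rose at both times. Its intensity was 1521, 1568 and 1504 on the DMSO arrays and 3465, 3338 and 3335 on the ICG-001 arrays at 6 h. At 24 h it was 1538, 1580 and 1619 with DMSO and 4638, 4872 and 4789 with ICG-001. Each ICG-001 array lay more than 2-fold above each DMSO array, with no overlap, and the siRNA arrays lay between 1548 and 1638 in both siRNA groups. The change was 0.61 ± 0.05 (SE, adjusted p = 8.07e-09) at 6 h and 0.93 ± 0.05 (adjusted p = 1.25e-11) at 24 h. Under the deposited scaling it was 1.13 and 1.58. The rise was larger at 24 h by 0.32 ± 0.07 (adjusted p = 0.0033).

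LINC01133, on chromosome 1, rose at both times. It lay at 575, 573 and 561 with DMSO and at 1100, 1023 and 1041 with ICG-001 at 6 h. At 24 h the DMSO arrays read 318, 340 and 376 and the ICG-001 arrays 1568, 1593 and 1510. The groups did not overlap at either time, and the DMSO level was lower at 24 h than at 6 h (-0.78 ± 0.10, adjusted p = 1.44e-05). The change with ICG-001 was 0.60 ± 0.10 (adjusted p = 0.000118) at 6 h and 1.84 ± 0.10 (adjusted p = 2.25e-11) at 24 h, a difference of 1.24 ± 0.14 (adjusted p = 5.87e-06). A further probe set of the gene was dim, with a mean intensity of 9.94, and changed by -0.17 and 0.07 at the same times. With the mean of both probe sets the change was 0.22 at 6 h, which did not pass, and 0.95 at 24 h, and the difference between the times was 0.74.

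LINC00662, on chromosome 19, rose at both times. The DMSO arrays read 308, 327 and 308 at 6 h and 266, 268 and 286 at 24 h. With ICG-001 it reached 856, 894 and 888 at 6 h and 625, 639 and 554 at 24 h. All ICG-001 arrays were above all DMSO arrays, and the level with ICG-001 was lower at 24 h than at 6 h by -0.56 ± 0.08 (adjusted p = 2.67e-05). The change against DMSO was 1.25 ± 0.08 (adjusted p = 7.47e-10) and 0.93 ± 0.08 (adjusted p = 2.62e-08), and the difference between the times of -0.32 ± 0.11 (adjusted p = 0.113) did not pass. Its other probe sets did not share it: one with a mean intensity of 213 changed by 0.00 and -0.15, and a dimmer one by 0.17 at each time. The mean of the 3 probe sets changed by 0.47 and 0.32.

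LINC03008, on chromosome 7, read 205, 203 and 188 with DMSO and 401, 445 and 454 with ICG-001 at 6 h. At 24 h the values were 109, 161 and 164 against 400.4, 367 and 400.8. The groups did not overlap, and the changes were 0.99 ± 0.18 (adjusted p = 0.000409) and 1.26 ± 0.18 (adjusted p = 1.86e-05). On the siRNA arrays the gene lay between 4.11 and 14.8.

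DIP2C-AS1 and LINC02604 completed the rise at both times, DIP2C-AS1 with changes of 0.45 and 0.72 and LINC02604 with 0.27 and 0.64. Both calls at 6 h depended on single arrays: DIP2C-AS1 did not pass without ICG-001 6 h replicate 1 or 2 or DMSO 6 h replicate 2 (0.35 to 0.41), and LINC02604 passed in only 1 of 6 fits with an array left out, that without ICG-001 6 h replicate 3 (0.21 to 0.29 in the others). LINC02604 at 6 h also did not pass with 1 added (0.29) or with median centring (0.31). A second LINC02604 probe set with a mean intensity of 116 changed by -0.07 and -0.39, and the mean of its probe sets passed at neither time (0.10 and 0.13).

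A group of genes rose at 24 h with values at 6 h that did not pass the test. FUT8-AS1, antisense to the gene of the core fucosyltransferase, read 114, 124 and 130 with DMSO and 319, 326 and 321 with ICG-001 at 24 h. At 6 h it read 114, 118 and 108 against 132, 133 and 124. The groups were apart at both times but by little at 6 h, with changes of 0.11 ± 0.12 (adjusted p = 0.792) and 1.24 ± 0.12 (adjusted p = 2e-07). The difference between the times was 1.12 ± 0.18 (adjusted p = 0.000231).

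TONSL-AS1, antisense to a gene of replication fork repair, moved apart between the times in both arms. With DMSO it read 54.9, 49.4 and 66.5 at 6 h and 20.8, 35.6 and 32.3 at 24 h. With ICG-001 it read 88.4, 95.3 and 76.9 at 6 h and 132, 151 and 141 at 24 h. Arrays of the treatments did not overlap at either time, and the change at 24 h was 1.65 ± 0.15 (adjusted p = 4.44e-08), with 0.44 at 6 h, which did not pass (0.50 under the deposited scaling, which passed). The DMSO level fell by 0.64 (SE 0.15, adjusted p = 0.0076) and the ICG-001 level rose by 0.57 (SE 0.15, adjusted p = 0.00866) from 6 h to 24 h. The fall under DMSO did not pass without DMSO 6 h replicate 3 (-0.56), and the rise under ICG-001 did not pass without ICG-001 6 h replicate 3 (0.50).

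KLF3-AS1, antisense to the gene of a zinc finger repressor, was dim in every group but one. It read 28.9, 22.4 and 23.6 with DMSO and 81.8, 88.1 and 82.5 with ICG-001 at 24 h, and between 13.1 and 24.6 on the 6 h arrays. The 3 ICG-001 24 h arrays stood alone, with a change of 1.09 ± 0.16 (adjusted p = 2.5e-05). Its second probe set, with a mean intensity of 20.0, changed by 0.17, and the mean of both by 0.63.

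Among the other genes with large rises at 24 h, LMNTD2-AS1 changed by 1.11 ± 0.14, LINC02864 by 1.04 ± 0.13, LINC02891 by 0.97 ± 0.11 and LINC02035 by 0.65 ± 0.12. Their 6 h changes were 0.26, 0.13, 0.28 and 0.09, and none of these passed. LMNTD2-AS1 read 119, 115 and 104 with DMSO and 243, 296 and 271 with ICG-001 at 24 h. LINC02891, which read 143, 158 and 164 against 341, 359 and 323, and LINC02864, which read 57.3, 81.4 and 82.9 against 179, 170 and 169, were likewise apart on all arrays. PSMG3-AS1, antisense to a proteasome assembly chaperone gene, changed by 0.53 at 24 h but did not pass without ICG-001 24 h replicate 1 (0.46) or DMSO 24 h replicate 1 (0.39). The 24 h rise of GABPB1-AS1 (0.35) did not pass with 1 in place of 16 added to the intensity and was lost when any of 5 arrays was left out: ICG-001 24 h replicate 1, 2 or 3, or DMSO 24 h replicate 2 or 3.

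TMPO-AS1 fell at both times. It is named for TMPO, the gene of a lamina-associated protein. The DMSO arrays read 205, 196 and 188 at 6 h and 175, 193 and 190 at 24 h. The ICG-001 arrays read 75.1, 80.4 and 84.2 at 6 h and 52.7, 60.7 and 62.1 at 24 h. Every ICG-001 array was below 90 and every DMSO array above 170. The change was -1.30 ± 0.10 (adjusted p = 8.72e-09) and -1.62 ± 0.10 (adjusted p = 2.24e-10). On the siRNA arrays it lay between 66.0 and 88.4, with 78.9 and 88.4 under control siRNA and 66.0 and 78.5 under CTNNB1 siRNA.

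LINC03024 read 133, 161 and 131 with DMSO and 62.1, 66.1 and 66.8 with ICG-001 at 6 h. At 24 h it read 119, 111 and 167 against 32.3, 46.3 and 31.5. The groups did not overlap, with changes of -1.03 ± 0.15 (adjusted p = 4.58e-05) and -1.56 ± 0.15 (adjusted p = 1.42e-07).

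HOXA-AS2, which lies in the HOXA cluster, read 116, 125 and 113 with DMSO and 64.3, 58.4 and 53.9 with ICG-001 at 6 h. At 24 h the values were 189, 182 and 202 against 143, 151 and 149. The level rose with time in both arms, by 0.65 ± 0.10 with DMSO and 1.07 ± 0.10 with ICG-001, and ICG-001 stayed below DMSO at each time. The change was -0.89 ± 0.10 (adjusted p = 8.63e-07) at 6 h and -0.48 ± 0.10 (adjusted p = 0.000855) at 24 h. HOXA-AS3, from the same cluster, fell by 0.46 and 0.39 (SE 0.09 at both times; -0.26 at 24 h under the deposited scaling), while HOXB-AS1, from the HOXB cluster, rose by 0.55 ± 0.14 at 24 h.

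MUC12-AS1, antisense to a membrane mucin gene, read 419, 443 and 392 with DMSO and 295, 292 and 277 with ICG-001 at 6 h. The 24 h arrays read 602, 627 and 623 against 281, 295 and 259. The ICG-001 level was alike at both times while the DMSO level rose by 0.51 ± 0.14 (adjusted p = 0.0204); that rise did not pass without DMSO 6 h replicate 1 or 3 or DMSO 24 h replicate 2 or 3, with values of 0.45 to 0.52. The change was -0.67 ± 0.14 (adjusted p = 0.0012) at 6 h and -1.34 ± 0.14 (adjusted p = 2.49e-07) at 24 h.

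KLRK1-AS1, antisense to the gene of an activating receptor of natural killer cells, followed a like course. It read 381.4, 418 and 381.3 with DMSO and 316, 318 and 307 with ICG-001 at 6 h. The 24 h arrays read 958, 870.3 and 808 with DMSO and 479, 468 and 459 with ICG-001. The level rose with time in both arms, by 1.16 ± 0.07 with DMSO and 0.42 ± 0.07 with ICG-001, and no array of the treatments overlapped at either time. The change was -0.45 ± 0.07 (adjusted p = 0.000135) and -1.19 ± 0.07 (adjusted p = 2.24e-10), which differ by -0.74 ± 0.10 (adjusted p = 8.03e-05).

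Smaller falls at both times came from HMMR-AS1 (-0.70 and -0.86), LINC01140 (-0.54 and -0.55), MRPL20-AS1 (-0.48 and -0.47) and B3GALT5-AS1 (-0.30 and -0.45). The last pair passed at neither time under the deposited scaling, with changes of -0.19 and -0.20 for MRPL20-AS1 and 0.05 and -0.19 for B3GALT5-AS1, and LINC01140 did not pass at 6 h (-0.44). With median centring MRPL20-AS1 (-0.21), B3GALT5-AS1 (0.04) and LINC01140 (-0.45) did not pass at 6 h. B3GALT5-AS1 at 6 h passed in only 1 of 6 fits with an array left out, that without DMSO 6 h replicate 1 (-0.32 to -0.26 in the others). LINC01140 passed at 6 h only without DMSO 6 h replicate 3 (-0.57 to -0.43 in the others) and at 24 h only without ICG-001 24 h replicate 1 or DMSO 24 h replicate 1 (-0.57 to -0.46). It passed at neither time with 1 added (-0.61 and -0.65) or with the mean of its probe sets (-0.23 and -0.26). At 24 h KMT2E-AS1 fell by 0.98 (SE 0.17), reading 172.1, 172.5 and 194 with DMSO against 103, 87.8 and 99.3 with ICG-001. EP300-AS1, antisense to the gene of the coactivator p300, read 102, 115 and 97.3 with DMSO and 56.5, 47.3 and 50.4 with ICG-001 at 24 h, a fall of 0.94 (SE 0.19, adjusted p = 0.000639). At 6 h it changed by -0.28, which did not pass. EP300-AS1, HMMR-AS1, DIP2C-AS1, LINC02604, HOXA-AS3, HOXB-AS1, LINC01140, MRPL20-AS1 and B3GALT5-AS1 were singled out after their values were seen.

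**Figure D4:**
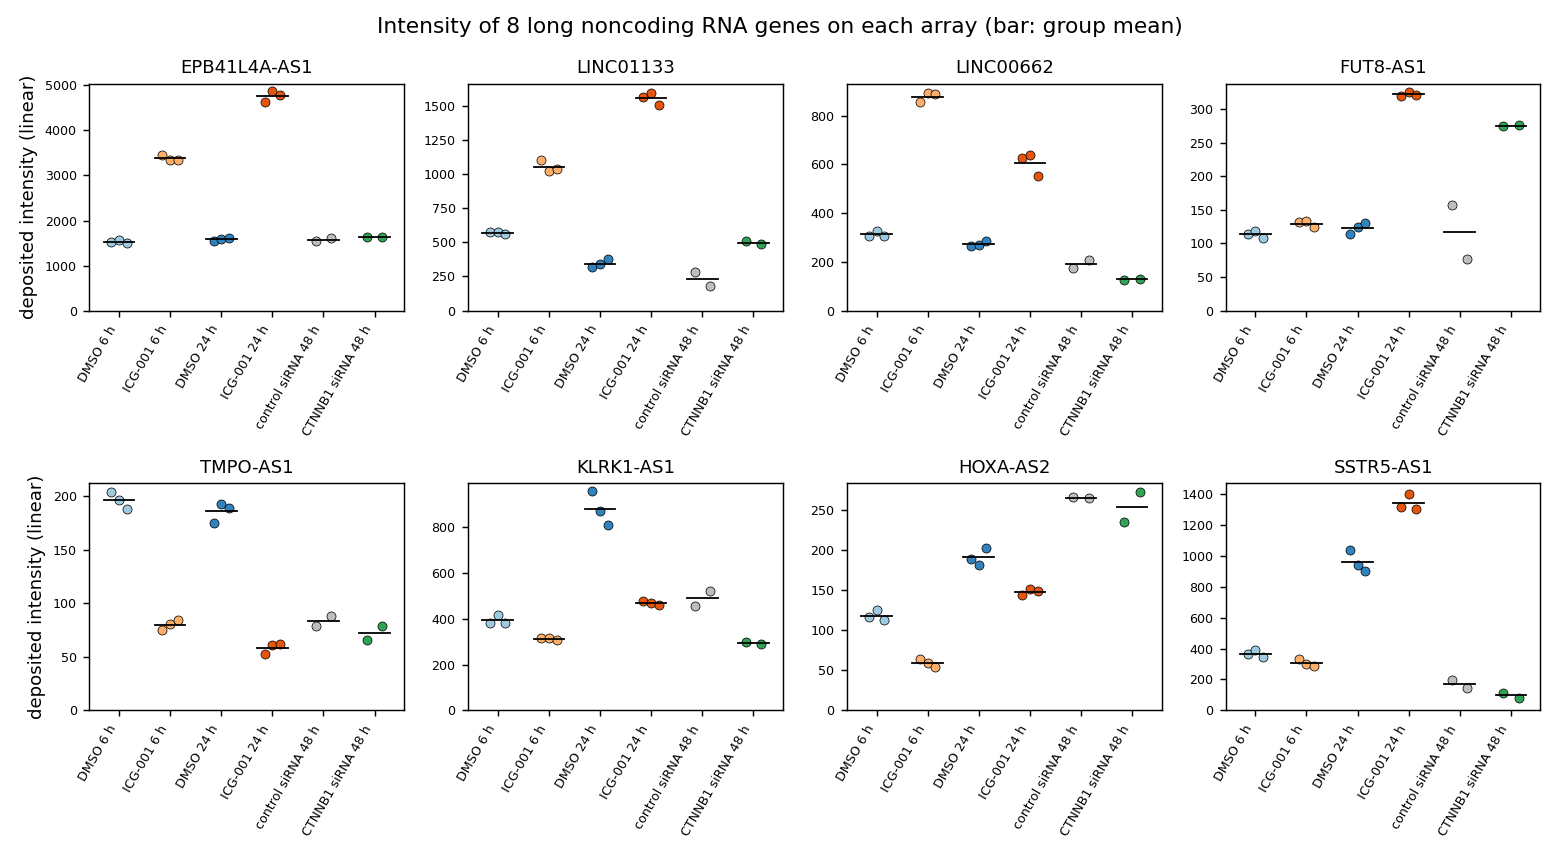
Deposited intensity (y axis, linear, from 0) on each array of the 6 groups (x axis) for 8 long noncoding RNA genes; points are arrays and bars group means. EPB41L4A-AS1, LINC01133 and LINC00662 are higher with ICG-001 at both times, FUT8-AS1 at 24 h and with CTNNB1 siRNA, and TMPO-AS1, KLRK1-AS1 and HOXA-AS2 are lower with ICG-001 at both times.

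Of the genes that passed at 6 h, 6 did not pass at 24 h: SSTR5-AS1, LINC02683, LINC00299, ASB16-AS1, LINC02314 and PRKAG2-AS2. The last 3 of these each passed in only 1 of 6 fits with an array left out: ASB16-AS1 without ICG-001 6 h replicate 1 (-0.30 to -0.29 in the others), LINC02314 without DMSO 6 h replicate 3 (0.40 to 0.54) and PRKAG2-AS2 without DMSO 6 h replicate 1 (0.46 to 0.56). ASB16-AS1 also did not pass under the deposited scaling (-0.23) or median centring (-0.24), LINC02314 with 1 added (0.57), and PRKAG2-AS2 with 64 added (0.25) or in the drug arrays alone (0.55). LINC02683 read 169, 198 and 205 with DMSO and 140, 115 and 133 with ICG-001 at 6 h. At 24 h it read 295, 242 and 254 against 332, 342 and 309, so that ICG-001 was below DMSO on all arrays at 6 h and above it on all at 24 h. The changes were -0.65 ± 0.12 (adjusted p = 0.000514) and 0.15 ± 0.12 (adjusted p = 0.508), and they differed by 0.79 ± 0.17 (adjusted p = 0.00419). LINC00299 fell by 1.08 (SE 0.28, adjusted p = 0.0115) at 6 h, reading 37.8, 51.6 and 122 with DMSO against 21.3, 9.47 and 33.1. Without DMSO 6 h replicate 3, the highest of these arrays, the fall was -0.68, and without ICG-001 6 h replicate 2 it was -0.85; neither passed.

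SSTR5-AS1, antisense to a somatostatin receptor gene, rose with time in both arms. It read 364, 392 and 348 with DMSO and 335, 302 and 285 with ICG-001 at 6 h. At 24 h the DMSO arrays read 1039, 939 and 902 and the ICG-001 arrays 1316, 1403 and 1301. The rise from 6 h to 24 h was 1.40 ± 0.10 (adjusted p = 6.79e-09) with DMSO and 1.88 ± 0.10 (adjusted p = 6.43e-11) with ICG-001. The effect of ICG-001 depended on the scaling. It was -0.39 ± 0.10 (adjusted p = 0.00717) at 6 h, did not pass without DMSO 6 h replicate 2 (-0.34), and under the deposited scaling was -0.25 and with median centring -0.26, neither of which passed. At 24 h it was 0.08 and did not pass, but was 0.48 and passed under the deposited scaling.

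Other genes that rose with time in both arms were LINC02035, by 0.89 with DMSO and 1.45 with ICG-001, and SLC9A3-AS1, antisense to a sodium/proton exchanger gene, by 0.74 and 0.72. LINC02035 read 106, 80.0 and 77.3 with DMSO and 102, 101 and 89.5 with ICG-001 at 6 h, and 156, 162 and 192 against 294, 296 and 300.0 at 24 h. SLC9A3-AS1 read 673, 419 and 654 with DMSO and 940, 1037 and 863 with ICG-001 at 6 h, and 1075, 886 and 878 against 1615, 1719 and 1702 at 24 h. Its ICG-001 arrays lay above the DMSO arrays at both times, but after quantile normalization the change passed at neither time. At 24 h it was 0.41, and under the deposited scaling it was 0.82 and passed. Under DMSO, 11 of the 13 changes over time were rises, and TONSL-AS1 and LINC01133 were the 2 falls.

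CTNNB1 siRNA changed 36 long noncoding RNA genes, but the count depended on the scaling and on which arrays set the spread. It was 14 under the deposited scaling, where 9.09% of all genes passed, and 6 where the siRNA arrays were fitted alone. The share of all genes in the fit of the siRNA arrays alone is not given here, so the lower count is not a trait of these genes. The 12 genes that passed under quantile, deposited and median-centred scaling were LINC01133, FUT8-AS1, LINC00304, LINC02065, MUC12-AS1, LINC00550 and LINC02615, which rose, and SLCO4A1-AS1, KLRK1-AS1, SSTR5-AS1, LINC00662 and B3GALT5-AS1, which fell. Those that also passed in the siRNA arrays alone were LINC01133, FUT8-AS1, LINC00304, LINC02065, SLCO4A1-AS1 and KLRK1-AS1.

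LINC01133 read 279 and 178 with control siRNA and 511 and 486 with CTNNB1 siRNA, a change of 0.99 ± 0.12 (adjusted p = 1.08e-05), which was 0.45 with the mean of its probe sets. FUT8-AS1 read 158 and 77.5 against 275 and 276, a change of 0.99 ± 0.15 (adjusted p = 0.00017), which was 0.65 without control siRNA replicate 2 and 0.56, not passing, with the mean of its probe sets. LINC00304 read 23.6 and 22.7 against 61.3 and 94.2, a change of 1.18 ± 0.19 (adjusted p = 0.000308). The arrays of the groups did not overlap in these genes, which with 2 arrays a group also held for 44.2% of all genes. The control siRNA arrays of LINC01133 and FUT8-AS1 lay further apart than the CTNNB1 siRNA arrays. LINC02065 rose by 0.74 ± 0.17, from 40.5 and 41.3 to 84.3 and 99.7, and did not pass without CTNNB1 siRNA replicate 2 (0.66).

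SLCO4A1-AS1, antisense to an organic anion transporter gene, fell with CTNNB1 siRNA. It read 384 and 468 with control siRNA and 224 and 230.1 with CTNNB1 siRNA, a change of -0.76 ± 0.10 (adjusted p = 1.75e-05), and changed by -0.03 and 0.01 with ICG-001 at 6 h and 24 h (0.16 and 0.30 under the deposited scaling, the latter passing). KLRK1-AS1 read 454 and 523 against 300.4 and 292, a change of -0.70 ± 0.09 (adjusted p = 2.51e-05). SLCO4A1-AS1 and LINC02065 were singled out after their values were seen. MUC12-AS1 read 136 and 57.6 against 179 and 195; its change of 0.76 did not pass without control siRNA replicate 2 (0.35) and was 1.18 without control siRNA replicate 1.

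With 16 added, the 4 falls with the largest log2 change under CTNNB1 siRNA were in genes of low intensity and were lost under other settings. LINC01616 read 19.3 and 29.4 against 6.87 and 4.76 (-1.29 ± 0.31, adjusted p = 0.00911), CACNA1G-AS1 37.9 and 54.6 against 14.0 and 25.4, LINC00173 44.2 and 49.9 against 25.7 and 15.1, and CARD8-AS1 30.04 and 18.2 against 10.4 and 8.54. None of these 4 passed under the deposited scaling, the median-centred scaling or in the siRNA arrays alone, and each was lost when at least 1 siRNA array was left out. Under the deposited scaling, RETREG1-AS1 (5.61 against 18.0 as group means) and LINC02994 (3.52 against 15.6) did not pass either, and LINC02994 passed only without CTNNB1 siRNA replicate 2 (0.87 to 1.01 with another array left out). LINC00550 and LINC02615, at group means of 4.07 and 4.30 with control siRNA against 16.2 and 17.0, passed in each of the 3 scalings and not in the siRNA arrays alone; LINC02615 also did not pass without control siRNA replicate 2 (0.86) or CTNNB1 siRNA replicate 2 (0.65).

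ICG-001 at 24 h and CTNNB1 siRNA shared 9 genes, 20% of the 45 and 25% of the 36. The direction was the same in 5: LINC01133 and FUT8-AS1 rose in both, and KLRK1-AS1, B3GALT5-AS1 and UBXN10-AS1 fell in both. It was opposite in 4: LINC00662 rose with ICG-001 and fell with CTNNB1 siRNA, while MUC12-AS1, LINC01140 and LINC02065 fell with ICG-001 and rose with CTNNB1 siRNA. For LINC00662 the siRNA values were 176 and 208 against 126 and 131 (-0.47 ± 0.10, adjusted p = 0.00313), and the mean of its probe sets changed by 0.12, while its other probe sets changed by 0.56 and 0.28. Under the deposited scaling, B3GALT5-AS1, UBXN10-AS1 and LINC02065 did not pass at 24 h, and UBXN10-AS1 and LINC01140 did not pass with CTNNB1 siRNA. At 24 h UBXN10-AS1 (-0.39) passed in only 1 of 6 fits with an array left out, that without DMSO 24 h replicate 2 (-0.43 to -0.35 in the others), and did not pass with 1 added (-0.49). LINC02065 did not pass at 24 h without ICG-001 24 h replicate 1 or 2 or DMSO 24 h replicate 2 or 3 (-0.45 to -0.40). With CTNNB1 siRNA, B3GALT5-AS1 (-0.40) did not pass without control siRNA replicate 1 (-0.34) or CTNNB1 siRNA replicate 2 (-0.28), LINC01140 without control siRNA replicate 2 (0.65) or CTNNB1 siRNA replicate 1 (0.58), and UBXN10-AS1 (-0.55) passed only without CTNNB1 siRNA replicate 2 (-0.58 to -0.44 with another array left out). LINC01140 and UBXN10-AS1 also did not pass there with 64 added (0.33 and -0.18). Of the 9 genes, LINC01133, FUT8-AS1, KLRK1-AS1 and LINC00662 passed in both comparisons in every fit with 1 array left out. These comparisons share no arrays, but the model gives each gene 1 estimate of its spread, which both use. Sharing was not counted over all genes, and brighter genes passed more often in both comparisons. Whether the 9 shared genes, or their split by direction, differ from what other genes of like intensity show was not tested.

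For 59 of the 209 antisense genes the sense gene was also measured. At 24 h with ICG-001, 7 of the 59 antisense (11.9%) and 14 of the 59 sense genes (23.7%) passed, beside 20.5% of all genes, and in 1 pair both did. With so few calls on either side, the counts of pairs do not show whether partners changed together more or less often than other genes. In that pair EPB41L4A-AS1 rose (0.93) and EPB41L4A, a gene of the band 4.1 family, fell (-0.66 ± 0.15, adjusted p = 0.00204). EPB41L4A read 63.4, 64.3 and 85.7 with DMSO and 35.4, 46.0 and 41.4 with ICG-001, with no overlap. At 6 h, 4 antisense and 10 sense genes passed (6.78% and 16.9% of the 59, beside 13.8% of all genes) and no pair did together. EPB41L4A changed by -0.30 at 6 h, which did not pass.

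The TMPO probe set used was dim, with a mean intensity of 9.91, and changed by -0.34 and -0.39 at 6 h and 24 h, neither of which passed. As steady probe sets are outside the table, this probe set need not show the level or change of TMPO RNA. SSTR5 read 28.7, 24.5 and 42.7 with DMSO at 6 h and 87.3, 81.1 and 42.3 at 24 h, and rose by 0.73 ± 0.21 (adjusted p = 0.0345) beside the rise of SSTR5-AS1, although the SSTR5 arrays of the 2 times overlapped. The SSTR5 rise did not pass without DMSO 6 h replicate 1 or 2 or DMSO 24 h replicate 1 or 2 (0.58 to 0.69). Sense genes also passed where their antisense partner changed in the same direction but did not pass. LURAP1L changed by 2.00 at 6 h, beside 0.38 in LURAP1L-AS1. SOCS2, an inhibitor of cytokine signalling, changed by 1.46 at 24 h, beside 0.44 in SOCS2-AS1. Both sense genes were singled out after their values were seen. With CTNNB1 siRNA, 6 antisense and 6 sense genes passed (10.2% of the 59 on each side, beside 12% of all genes), in 0 pairs together. Which strand each probe set reads was not tested.

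**Figure D5:**
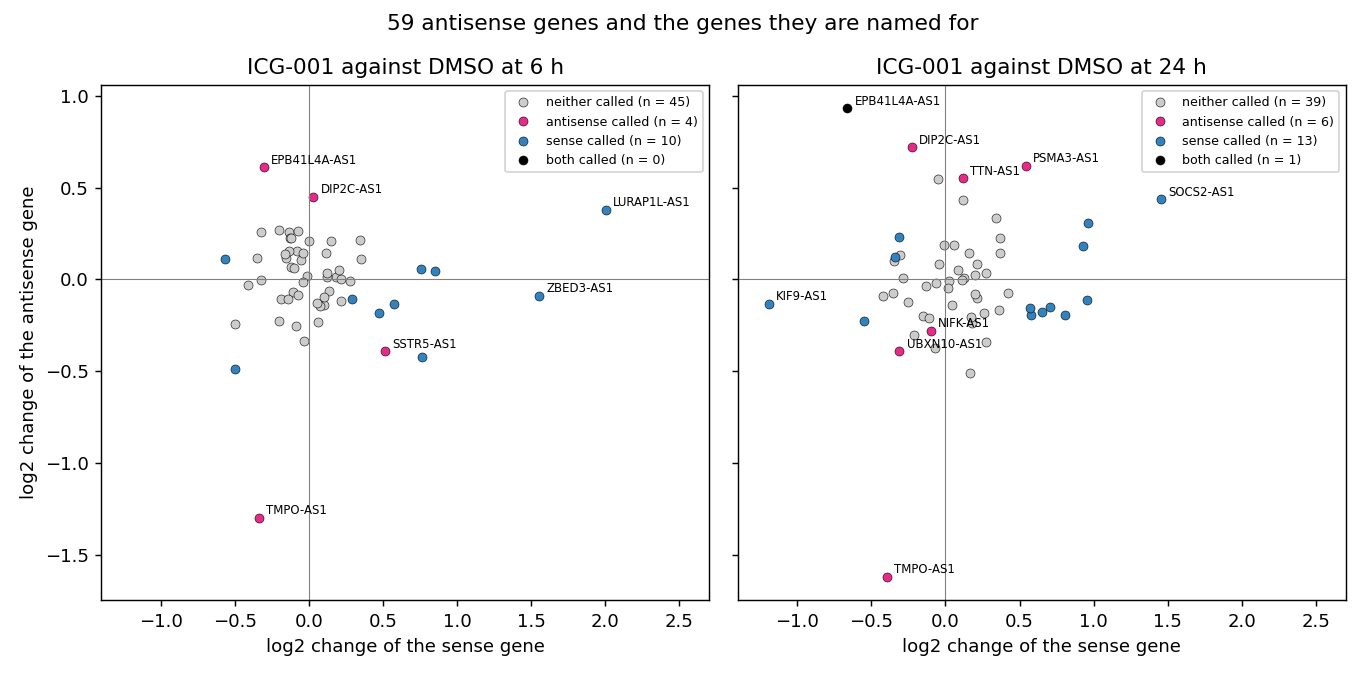
Change of 59 antisense genes (y axis) and of the sense genes they are named for (x axis) with ICG-001 at 6 h (left) and 24 h (right), as log2 differences from DMSO after quantile normalization; points are pairs, coloured by which member passed the test. EPB41L4A-AS1 is the 1 pair in which both passed, at 24 h and in opposite directions.

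Of 91 names on a further list of noncoding RNA genes, 23 that the symbol rule does not reach were measured. With ICG-001 1 of the 23 rose at 6 h (4.35%, beside 13.8% of all genes) and 4 rose at 24 h (17.4%, beside 20.5%), and no fall passed. Under the deposited scaling 2 of the 23 passed at 6 h, the added one being MIRLET7BHG (0.57, adjusted p = 0.0457, against 0.50 after quantile normalization). GAS5, a host of small nucleolar RNAs that accumulates when translation is blocked, read 137, 140.2 and 133 with DMSO and 256, 253 and 224 with ICG-001 at 6 h. The 24 h values were 133, 140.5 and 151 against 299, 302 and 312. The groups did not overlap at either time, and the changes were 0.76 ± 0.09 (adjusted p = 2.27e-06) and 0.96 ± 0.09 (adjusted p = 6.98e-08).

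MIR100HG, a microRNA host gene, rose at 24 h, from 80.9, 95.2 and 95.5 with DMSO to 195, 201 and 187 with ICG-001 (0.95 ± 0.11, adjusted p = 1.9e-06), and changed by -0.02 at 6 h. With the mean of its probe sets the change was 0.33, which did not pass. MIRLET7BHG (0.66) and HCG18 (0.37) completed the list at 24 h, and neither passed without ICG-001 24 h replicate 2 (0.56 and 0.32); HCG18 also did not pass without DMSO 24 h replicate 2 (0.27) or with the mean of its probe sets (0.10). MALAT1, an abundant nuclear RNA, read 2033, 1587 and 459 with DMSO at 6 h and 3820, 2521 and 3026 at 24 h. Its rise of 1.40 ± 0.41 was 0.72 without DMSO 6 h replicate 3 and then did not pass, and it also did not pass without DMSO 24 h replicate 1, 2 or 3 (1.28 to 1.51). With the mean of its probe sets the MALAT1 change was 0.53 (adjusted p = 0.237), and in the drug arrays alone the adjusted p was 0.0545, so neither passed. By limma, 0 of the 23 passed with CTNNB1 siRNA, beside 12% of all genes, and 1 had an unadjusted p under 0.05.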

How the data were processed

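RNA from 16 arrays was analysed. The authors deposited linear intensity values, 1 per probe set and array; the labels name Affymetrix arrays and biotin labelling, and how probes were summarised and arrays scaled is not given in the sources used here. The deposited table held 9554 probe sets, whose lowest coefficient of variation was 0.40. The platform annotation gave 1 symbol for 6442 probe sets, several for 252 and none for 2860; probe sets with several symbols or none were left out. Log2(intensity + 16) was computed. Array medians differed by 0.64, above a limit of 0.5, so quantile normalization was applied, and the brightest probe set was kept for each of 5250 genes. A limma 3.58.1 model (R 4.3.3) with 6 group terms and an intensity trend, with 10 residual and 7.84 prior degrees of freedom, gave each log2 change, standard error and Benjamini-Hochberg adjusted p over all genes. The model was tested on simulated data. The number of arrays limits the precision.

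The members, gene lists and alternatives were chosen with earlier results of these data known. Named genes were the 30 long noncoding RNA genes with the largest change that passed, the 3 brightest, the sense partners of those, and listed other noncoding RNA genes that passed; other names were singled out after their values were seen. Alternatives were 1 or 64 added, the deposited scaling, median centring, dim genes left out (no group with a mean log2 value above that of an intensity of 32), arrays of 1 experiment alone, the mean of a gene's probe sets, updated symbols, a replicate block, and leaving out each array. Same-numbered arrays did not deviate together (correlations from -0.15 to 0.09), so replicate numbers were not taken as pairs. Promoter sequences are RefSeq's, GRCh38.p14; the files name no build, and positions of probe sets are not given.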

Additional observations from a re-analysis of the deposited data

Results flagged for a closer look

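The ICG-001 effect at 24 h differed from that at 6 h, by limma's test of the difference after Benjamini-Hochberg adjustment over all 5250 genes, in the genes below; each value is the log2 change at 24 h minus that at 6 h. It was positive for LINC01133 (1.24), TONSL-AS1 (1.21), FUT8-AS1 (1.12), MIR100HG (0.96), KLF3-AS1 (0.95), LINC00629 (0.91), LINC02864 (0.90), LMNTD2-AS1 (0.84), LINC02683 (0.79), PSMG3-AS1 (0.73), LINC02891 (0.70), LINC02035 (0.56), SSTR5-AS1 (0.48) and EPB41L4A-AS1 (0.32). It was negative for MAGI2-AS3 (-0.81), KLRK1-AS1 (-0.74), MUC12-AS1 (-0.66) and ILRUN-AS1 (-0.46). LINC00629 changed by -0.19 at 6 h and 0.72 at 24 h, MAGI2-AS3 by 0.38 and -0.43, and ILRUN-AS1 by -0.24 and -0.70.

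Apart from KLRK1-AS1, the calls of the negative differences depended on the scaling, on other settings and on single arrays. That of MAGI2-AS3 was lost under the deposited scaling with little change in size (limma adjusted p = 0.0531). Under the deposited scaling MUC12-AS1 (-0.59), ILRUN-AS1 (-0.32) and MAGI2-AS3 (-0.80) did not pass, which left KLRK1-AS1 (-0.57); the SSTR5-AS1 difference grew to 0.73. With median centring MUC12-AS1 (-0.71), ILRUN-AS1 (-0.44), PSMG3-AS1 (0.67) and LINC02035 (0.50) did not pass. With 1 added MUC12-AS1 (-0.69), MAGI2-AS3 (-1.35), PSMG3-AS1 (0.91) and LINC02035 (0.60) did not pass, and with the mean of a gene's probe sets KLF3-AS1 (0.29), MIR100HG (0.37) and MAGI2-AS3 (-0.26) did not.

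Of the 12 fits that left out 1 array, MUC12-AS1 lost its call in 11, all but that without DMSO 6 h replicate 2 (-0.69 to -0.60). MAGI2-AS3 lost it in 10, all but those without ICG-001 24 h replicate 2 or DMSO 6 h replicate 2 (-0.85 to -0.73). SSTR5-AS1 lost it in 9, all but those without ICG-001 6 h replicate 1, DMSO 6 h replicate 3 or DMSO 24 h replicate 1 (0.42 to 0.49). LINC02035 lost it in 9, all but those without DMSO 6 h replicate 2 or 3 or DMSO 24 h replicate 3 (0.44 to 0.61), and LINC00629 in 9, all but those without ICG-001 6 h replicate 1 or 2 or DMSO 6 h replicate 2 (0.72 to 0.94). PSMG3-AS1 lost it in 8, all but those without DMSO 6 h or DMSO 24 h replicate 2 or 3 (0.59 to 0.79), and ILRUN-AS1 in 8, all but those without ICG-001 6 h replicate 3, ICG-001 24 h replicate 2 or DMSO 24 h replicate 1 or 2 (-0.46 to -0.38). The other differences named here passed in each of the 12 fits. No group had enough arrays for a test of a single outlying array.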

How the results depend on the processing

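With all 16 arrays or all arrays of 1 experiment, the counts of long noncoding RNA genes that passed stayed within 1.5 times of the reported count in each comparison except CTNNB1 siRNA. There the count of 36 became 14 under the deposited scaling, 12 with each array centred on its median and 6 with only the siRNA arrays. Leaving out 1 array moved 2 other counts by more than 1.5 times, those for ICG-001 at 6 h and for the difference between its effects, reported as 22 and 17. It gave 14 to 19 genes for ICG-001 at 6 h (14 without DMSO 6 h replicate 2) and 37 to 45 at 24 h. The range was 26 to 41 for CTNNB1 siRNA, 10 to 13 for DMSO over time and 31 to 41 for ICG-001 over time. For the difference between the ICG-001 effects it gave 10 to 15, with 10 without ICG-001 24 h replicate 3 or DMSO 6 h replicate 1 and 11 without ICG-001 6 h replicate 3 or ICG-001 24 h replicate 1. With the replicate number as a block the counts were 22, 45, 36, 15, 41 and 17 in the order of the 6 comparisons. Shares of all genes in the median-centred, siRNA-only, left-out and block fits are not given here. Whether these counts moved apart from those of the whole table was not tested. The block ended 6 calls of named genes: the differences between the ICG-001 effects of PSMG3-AS1 and LINC02035, LINC02604 with ICG-001 at 6 h, LINC00304 over time with ICG-001, and MALAT1 and SSTR5 over time with DMSO. Of 151 changes of named genes that passed, 21 lost their call under the deposited scaling, 20 with median centring, 15 with 1 added, 4 with 64 added, 17 with the mean of probe sets and 16 with the arrays of 1 experiment. Of these, B3GALT5-AS1 with ICG-001 at 6 h reversed to 0.047 under the deposited scaling and 0.036 with median centring, against -0.30, and LINC00662 with CTNNB1 siRNA reversed to 0.12 with the mean of its probe sets, against -0.47. The cause of these changes was not tested. The number of arrays, and the low intensity of 242 of the 476 genes, limit what could be detected.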
